A study of Caenorhabditis elegans with 6 samples.

Results

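The major sperm protein genes (*msp*) of *Caenorhabditis elegans* and 3 smaller sperm gene families were examined in wild-type N2 animals exposed to RPW-24, a small molecule of the quinazoline diamine class, or to its solvent DMSO. The smaller families were *ssp* (sperm-specific family), *sss* (sperm-specific family, class S) and *nspd* (nematode-specific peptide family, group D). Members were the probe sets whose array annotation names genes of these 4 families and no other gene. The rule found 53 probe sets, which name 54 genes, among the 22548 probe sets that are not array controls. It used names and no measured value. The reference annotation lists *sss-2* and *nspd-11* as pseudogenes. Of the 53, 31 belong to *msp* (30 genes), 10 to *ssp* (12 genes), 2 to *sss* (2 genes) and 10 to *nspd* (10 genes). A further 2 probe sets name a member together with another gene and were not counted as members.

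Synchronized animals were grown at 20 °C on *Escherichia coli* OP50 to the late L4 larval stage. They were then held for 15 hours at 15 °C in liquid medium with OP50 and either 70 µM RPW-24 or DMSO alone, with 1% DMSO in both groups. Total RNA of whole animals was hybridized to Affymetrix full-genome arrays, 3 per group. The replicates carry the letters G, H and I, and the RPW-24 and DMSO animals of a letter were exposed in parallel. Whole animals hold every tissue, so the number of sperm precursors, their stage and the RNA per precursor cannot be told apart in these values. The comparison asked how the sperm gene families responded to a compound that the study examined for its effect on immune gene expression.

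Nematode sperm have no flagellum and crawl by means of a pseudopod. Major sperm protein, one of the most abundant proteins of these cells, forms the filaments that move the pseudopod. Released from sperm, the same protein acts as a hormone that triggers the meiotic maturation of oocytes and the contraction of the gonadal sheath around them. It is encoded by many near-identical genes, which are transcribed in developing sperm and not in mature spermatozoa. A hermaphrodite makes its sperm in the last larval stage and then switches the germline to oocytes. The *ssp* and *sss* families are named for small sperm proteins, several of them with a domain like that of major sperm protein, and the *nspd* genes encode short peptides of nematodes that are expressed in the male germline and whose roles are little known.

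Sperm family probe sets were read higher on the RPW-24 array than on the parallel DMSO array in most cases, by about 1.4-fold to 1.5-fold. The median difference over all 53 members, RPW-24 minus DMSO, was 0.51 on the log2 scale (1.42-fold), with quartiles of 0.17 and 0.60 and a range from -0.05 to 0.86. The difference was above 0 for 45 members, below 0 for 3 and at 0, to within 0.01%, for 5. The median within each letter was 0.37 for G, 0.46 for H and 0.60 for I. Over all 22548 probe sets the median difference was 0.00, with quartiles of -0.08 and 0.00.

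None of these differences passed the test that treats the arrays of a group as independent. With limma and Benjamini-Hochberg adjustment over all probe sets, 0 of 53 members were called higher at an adjusted p under 0.05, where 2.42% of all probe sets were, and 0 were called lower, where 1.07% were. The lowest adjusted p of a member was 0.275, for *nspd-2*. At an unadjusted p under 0.05, 1 member was higher (6.79% of all probe sets) and 0 were lower (8.25%). A plain t-test with pooled variance was also run on linear intensities, which is not the modified t-test that the methods name. It could be run for 49 members and passed 0 in either direction at an unadjusted p under 0.05. Over all probe sets, 5.74% were higher and 6.73% lower. After adjustment it passed 0 members (1.18% of all probe sets higher and 0.448% lower). At the thresholds of the study, a change of at least 3-fold with p under 0.025, 0 members were higher (1.47% of all probe sets) and 0 lower (0.381%). The p used there was the unadjusted one of the limma fit, not that of the study's own test. The 3 replicates against 3 allow no exact permutation p below 0.1 for a single probe set. Because no source says that the letters are separate cultures beyond calling them biological replicates, p-values measure the spread between these arrays.

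**Figure D1:**
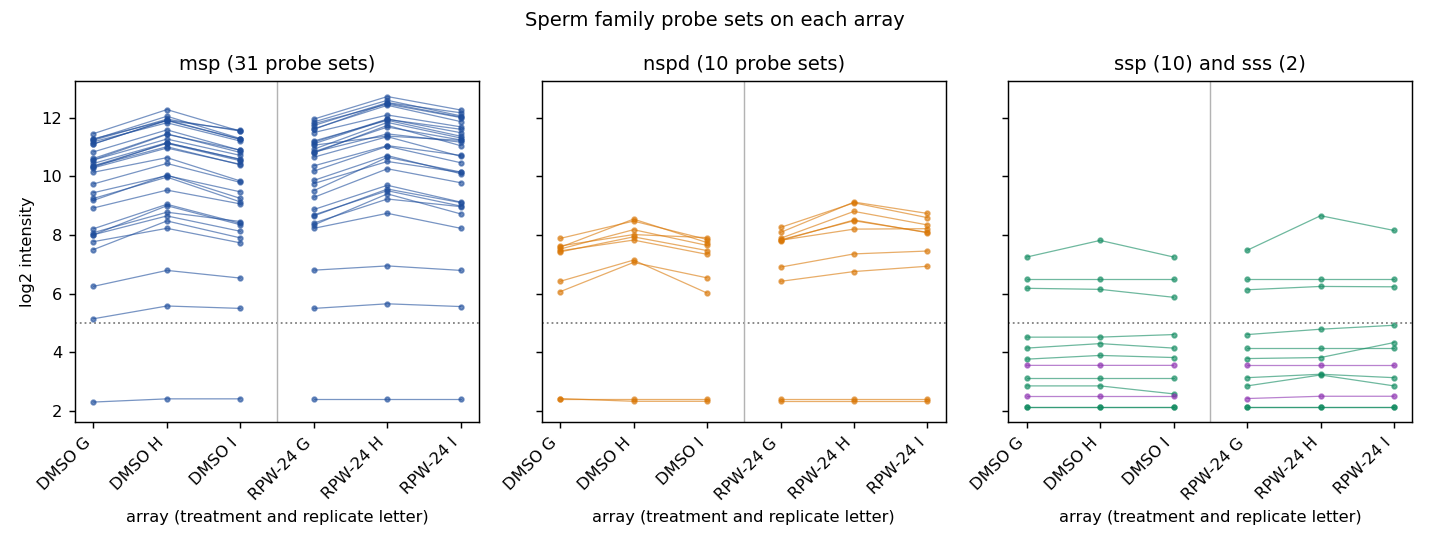
Each line joins the log2 intensities of 1 probe set on the 3 DMSO arrays and, separately, on the 3 RPW-24 arrays, for *msp*, *nspd*, and *ssp* with *sss* (*sss* in purple), with a dotted line at a log2 intensity of 5. The bright *msp* lines peak at letter H in both groups and stand higher under RPW-24, while 12 of the 53 probe sets lie below the dotted line.

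How well each probe set could be read varied with its design. Affymetrix marks a probe set with _x_at where some of its probes may also bind other sequences, with _s_at where it reads several similar transcripts, and with plain _at where it is meant for 1 transcript. Of the 53 members, 43 are _x_at, 2 are _s_at and 8 are _at. Of all members, 13 name several genes of the families and 40 name 1. A mean log2 intensity of at least 5 over the 6 arrays was reached by 41 members, and each of these 41 is an _x_at probe set (30 *msp*, 8 *nspd* and 3 *ssp*). The other 12 members never exceeded an intensity of 30.3, and their differences lay between -0.05 and 0.22. The lowest intensity on these arrays is 4.39, held by 35.7% to 37.2% of the probe sets of an array.

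Among the 41 brighter members the median difference was 0.57 (1.48-fold), with quartiles of 0.49 and 0.61. Letter by letter it was 0.45 for G, 0.51 for H and 0.67 for I. All 9951 probe sets of that brightness had a median of -0.07 and quartiles of -0.22 and 0.11. The 635 other _x_at probe sets of that brightness had a median of 0.00 and quartiles of -0.13 and 0.21. Because the 41 may bind each other's transcripts, they are not 41 separate measurements of transcription.

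**Figure D2:**
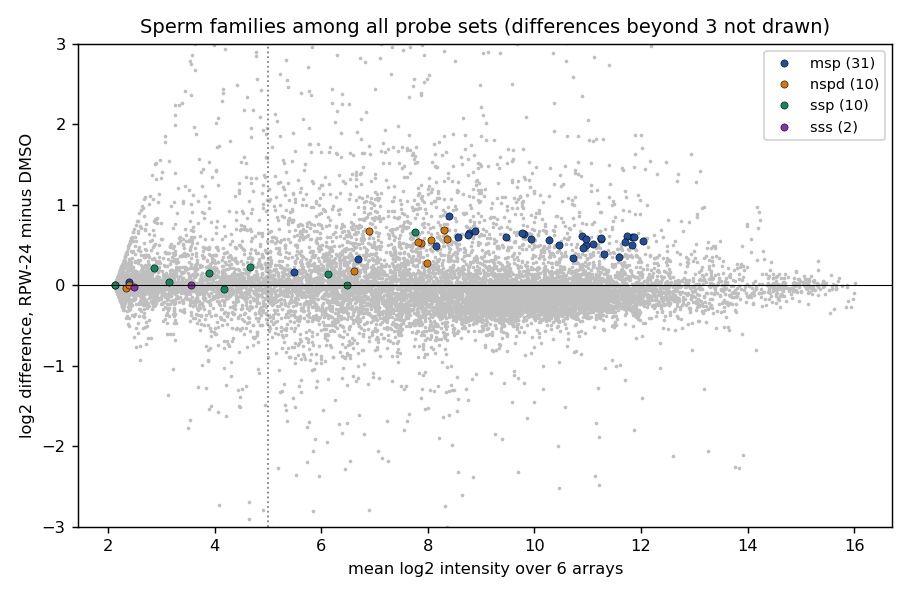
Each grey point is 1 of the 22548 probe sets, with its mean log2 intensity over the 6 arrays on the horizontal axis and its log2 difference, RPW-24 minus DMSO, on the vertical axis; coloured points are the 53 members and the dotted line is at 5. The members right of the dotted line have a median difference of 0.57, while those left of it lie between -0.05 and 0.22.

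Letter H stood above the other letters in both groups, and this spread was larger than the difference between the groups. *msp-55*, a gene of the major sperm protein itself, had DMSO intensities of 2208, 3825 and 2450 in G, H and I, and RPW-24 intensities of 3108, 5789 and 4169. The DMSO array of H was thus above the RPW-24 array of G, so the groups overlapped although each letter was higher with RPW-24. The RPW-24 arrays lay wholly above the DMSO arrays for 0 of 41, where 15.3% of all probe sets of that brightness did so.

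The DMSO array of H was above the RPW-24 array of G for 38 of the 41 (62.9% of all probe sets of that brightness), and above that of I for 7 (50.5%). H was the highest letter within both groups for 36 of the 41, including all 30 brighter *msp* probe sets, against 8.43% of all probe sets of that brightness and 12.1% of the other _x_at ones. The median of H minus the mean of G and I was 0.64 (log2) in DMSO and 0.63 in RPW-24, beside -0.01 and 0.02 for all probe sets of that brightness. The RPW-24 array was the higher one in all 3 letters for 38 of the 41 (20.8% of all probe sets of that brightness, and 27.7% of the other _x_at ones). With both arrays of H left out, the median difference over the 53 members was 0.53. In that setting 0 members were called, where only 0.231% of all probe sets were called higher and 0.0621% lower. The cause of the higher values of letter H was not tested.

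**Figure D3:**
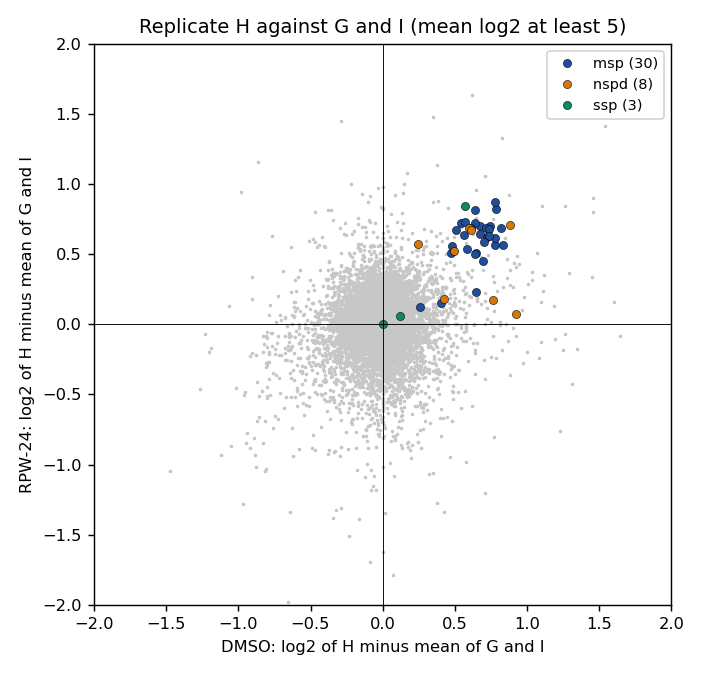
For each probe set with a mean log2 intensity of at least 5, the horizontal axis gives the log2 intensity of letter H minus the mean of G and I on the DMSO arrays and the vertical axis the same on the RPW-24 arrays, with members in colour and points beyond 2 not drawn. Most members stand in the upper right, with medians of 0.64 and 0.63, away from the grey cloud around 0.

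Since the animals of a letter were exposed in parallel, the test was repeated with the replicate letters entered as a blocking factor. The median standard error of the 41 brighter members was 0.31 without the block and 0.073 with it, while that of all probe sets of that brightness was 0.11 and 0.091. With the block, 2 members were called higher, *msp-63* and *msp-64*, where 0.736% of all probe sets were, and 0 lower, where 0.12% were. At an unadjusted p under 0.05, 34 of the 53 were higher with the block (6.75% of all probe sets) and 0 lower (7.09%).

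When the block was combined with a minimum mean log2 intensity of 5, 29 of the 41 members were called higher, where 9.42% of the 9951 probe sets tested were, and 0 lower, where 4.29% were. Of the 29, 25 were *msp* and 4 *nspd*, with differences from 0.34 to 0.86 and adjusted p-values from 0.00716 to 0.0448 (limma). Of the other _x_at probe sets of that brightness, 10.4% were called higher. This count rests on having all 3 letters: the same fit called 1 member higher without letter G (3.22% of the probe sets tested), 0 without H (2.85%) and 0 without I (2.85%), and 0 lower in each case (0.683%, 0.784% and 0.764%). The shares over all probe sets fell as well, and the median difference of the members was between 0.50 and 0.61. With the minimum and no block, 0 of 41 were called higher (9.55%) and 0 lower (6.76%), and at an unadjusted p under 0.05, 4 were higher (14.3%) and 0 lower (18.9%).

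The *msp* genes were the largest of the families. All 31 *msp* probe sets had a difference above 0, with a median of 0.57 (1.49-fold), quartiles of 0.49 and 0.61 and a range from 0.04 to 0.86. In DMSO the median intensity over the 31 was 1252, 1997 and 1344 for letters G, H and I, and in RPW-24 it was 1610, 2615 and 1681. Each RPW-24 median is the higher of its letter, and the DMSO median of H exceeds the RPW-24 medians of G and I. These medians can fall on different probe sets on different arrays. Within single *msp* probe sets, the DMSO array of H was above the RPW-24 array of I in a minority only.

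*msp-63* had the largest difference of any member. Its DMSO intensities were 181, 356 and 239 in G, H and I, and its RPW-24 intensities 324, 676 and 421. All letters were higher with RPW-24 by nearly the same ratio, and the DMSO array of H lay between the RPW-24 arrays of G and I. The difference was 0.86 ± 0.39 (log2, standard error) without the block, with an adjusted p of 0.428 (limma), and the letters gave 0.84, 0.92 and 0.82. With the block, the standard error was 0.035 and the adjusted p 0.0466 (limma).

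*msp-64* gave a similar picture. It was read at 296, 529 and 336 in DMSO and at 467, 829 and 556 in RPW-24. The DMSO array of H again stood above the RPW-24 array of G, and again each letter was higher with RPW-24. The difference was 0.68 ± 0.33 without the block (adjusted p = 0.46, limma) and the adjusted p was 0.0477 with it.

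The *msp* probe sets with the highest readings name several genes at once or genes of near-identical sequence. How bright a probe set is depends on its probes, so readings of different probe sets are not compared as levels of expression. The probe set naming *msp-51*, *msp-53*, *msp-57* and *msp-55* had the highest mean of all members, with 2808, 4961 and 2971 in DMSO and 3965, 6751 and 4911 in RPW-24. Its difference was 0.56 ± 0.32 (adjusted p = 0.564, limma), and 0.0189 was its adjusted p with the block and the intensity minimum. *msp-65* was read at 2402, 3958 and 2980 in DMSO and at 3704, 6180 and 4274 in RPW-24. Both have their highest value on the RPW-24 array of H and their lowest on the DMSO array of G, as 30 and 27 of the 30 brighter *msp* probe sets do, against 12.5% and 13.2% of all probe sets of that brightness.

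*msp-65* differed by 0.60 ± 0.28 (adjusted p = 0.448, limma), with an adjusted p of 0.00754 with the block and the minimum. The probe set naming *msp-51*, *msp-57* and *msp-55* differed by 0.50 ± 0.25 (adjusted p = 0.474) and had an adjusted p of 0.012 with both. The difference was also much alike over the *msp* probe sets as a whole. The 23 brighter ones that name 1 gene had a median of 0.60 and a range from 0.16 to 0.86, and the 7 that name several had a median of 0.50 and a range from 0.36 to 0.58.

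Probe sets that name the same genes can be set side by side. Those ending in _x_at may bind the same transcripts, so their likeness is no independent check. The 2 naming *msp-81* and *msp-79* differed between the groups by 0.36 and 0.51, and the 2 naming *msp-56* and *msp-10* by 0.39 and 0.47. *msp-32* has an _x_at probe set, which differed by 0.16, and an _at probe set, which stayed near the lowest intensity at 4.92 to 5.31 on all arrays.

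The smallest differences among the brighter *msp* probe sets were those of *msp-32* and *msp-74*. The _x_at probe set of *msp-32* was read at 35.3, 47.7 and 45.1 in DMSO and at 45.1, 50.3 and 47.1 in RPW-24, a difference of 0.16 ± 0.14 (adjusted p = 0.731, limma). *msp-74* was read at 75.9, 111 and 92.3 in DMSO and at 111, 123 and 111 in RPW-24, a difference of 0.32 ± 0.16 (adjusted p = 0.46, limma). In both, the DMSO array of G was the lowest of the 6. The groups of *msp-32* overlapped, and those of *msp-74* touched at a value shared by the DMSO array of H and the RPW-24 array of I.

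**Figure D4:**
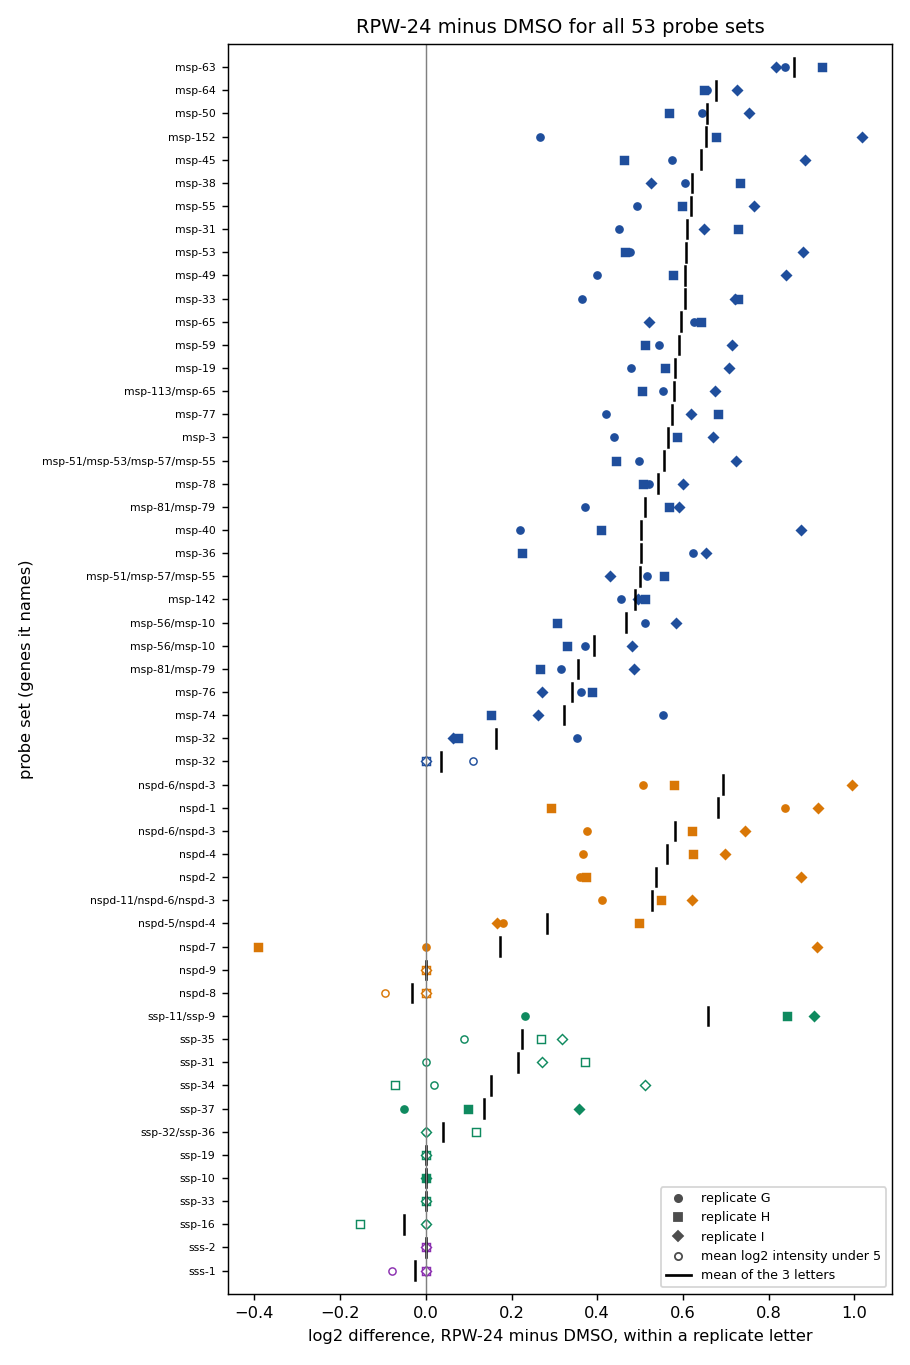
For each of the 53 probe sets, points give the log2 difference, RPW-24 minus DMSO, within letters G (circle), H (square) and I (diamond), and the bar is their mean, with open symbols for a mean log2 intensity under 5. For *msp* the means run from 0.04 to 0.86 with all letters at or above 0, and *nspd-7* has letters on both sides of 0.

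The *nspd* peptide genes had differences in the range of those of *msp*. Of their 10 probe sets, 8 were among the brighter members, with a median difference of 0.55, a range from 0.17 to 0.69 and letter medians of 0.37, 0.52 and 0.81. The median intensity of these 8 was 180, 252 and 189 in DMSO (G, H and I) and 227, 362 and 285 in RPW-24. RPW-24 was the higher array of each letter, and H was the highest letter in both groups.

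One probe set naming *nspd-6* and *nspd-3* had the largest *nspd* difference. It was read at 191, 373 and 214 in DMSO and at 272, 557 and 426 in RPW-24, a difference of 0.69 ± 0.39 (adjusted p = 0.558, limma). The other probe set of the same pair of genes was read at 236, 356 and 230 in DMSO and at 306, 547 and 385 in RPW-24, a difference of 0.58 ± 0.30 (adjusted p = 0.488, limma). Both had the shape of the *msp* probe sets, with a high letter H and overlapping groups. With the block and the intensity minimum, their adjusted p-values were 0.0401 and 0.0396 (limma).

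*nspd-1* was read at 66.9, 134 and 92.9 in DMSO and at 120, 164 and 175 in RPW-24, a difference of 0.68 ± 0.31 (adjusted p = 0.431, limma). Its highest RPW-24 array was that of I, not H. *nspd-7* was read at 85.5, 141 and 64.9 in DMSO and at 85.5, 108 and 122 in RPW-24, a difference of 0.17 ± 0.34. Its letters disagreed, being equal in G, lower with RPW-24 in H and higher in I. *nspd-4* differed by 0.56 ± 0.31 (adjusted p = 0.541, limma), and the probe set it shares with *nspd-5* by 0.28 ± 0.22 (adjusted p = 0.731, limma). The remaining 2 *nspd* probe sets, *nspd-8* and *nspd-9*, were plain _at probe sets that stayed between 5.01 and 5.35.

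The *ssp* and *sss* genes gave fewer usable values. Of 10 *ssp* probe sets 3 were among the brighter members, and of 2 *sss* probe sets 0 were. The probe set naming *ssp-11* and *ssp-9* was read at 152, 225 and 152 in DMSO and at 178, 403 and 285 in RPW-24, a difference of 0.66 ± 0.36 (adjusted p = 0.539, limma). It resembled the *msp* probe sets, with H high in both groups and the DMSO array of H above the RPW-24 array of G.

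*ssp-37* was read at 72.5, 70.7 and 58.6 in DMSO and at 70.0, 75.8 and 75.1 in RPW-24, a difference of 0.14 ± 0.10 (adjusted p = 0.731, limma). Its arrays lay close together, without the high letter H. *ssp-10* had the same intensity, 89.8, on all 6 arrays to within 0.01%, as did 35 of all probe sets of that brightness. Such a constant reading carries no information on the treatment. Of the 53 members, 5 were constant in this sense.

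Of the dim probe sets, *ssp-35* had the largest difference, 0.22 ± 0.09 (adjusted p = 0.383, limma), at 22.8 to 24.3 in DMSO and 24.3 to 30.3 in RPW-24. *sss-1* was read between 5.35 and 5.65 on all arrays and *sss-2* at 11.7 on each. No direction can be read for either *sss* gene at these levels.

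Few other probe sets had the array-by-array pattern of the *msp* genes. The median *msp* pattern, in log2 units about the mean of the 6 arrays, was -0.56, 0.17 and -0.43 for DMSO G, H and I and -0.08, 0.70 and 0.23 for RPW-24. Likeness was measured as the root mean square distance from this pattern over the 6 arrays, as a description. The distance of the 30 brighter *msp* probe sets, which made the pattern, had a median of 0.083, and that of the 9910 probe sets of that brightness outside the families a median of 0.47.

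Within a distance of 0.15 lay 32 members and 7 other probe sets. The nearest of the 7 names *Y59E9AR.1* and *Y59E9AR.7* (distance 0.062, difference 0.51), which the annotation also joins with *msp* genes on another probe set. Next were *Y59H11AM.1* (0.066, 0.59), *F58A6.9* (0.099, 0.59) and the probe set that names many *msp* genes along with others (0.13, 0.40). The remaining ones were *msd-2*, a gene with a major sperm protein domain, *ttr-6*, of the transthyretin-related family, and the small heat shock protein gene *hsp-12.3*. Of the 7, only *ttr-6* and *hsp-12.3* are read by plain _at probe sets. The others are _x_at, and some of their probes may also bind other sequences. All 7 were found from the values and have no test.

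Other sperm genes were mostly dim, and the 9 brighter ones did not share a direction. The list held 47 genes used in making or activating sperm, of which 34 could be measured by a probe set of their own. With limma, 0 of 34 were called higher (2.42% of all probe sets) and 0 lower (1.07%). At an unadjusted p under 0.05, 1 was higher (6.79%) and 2 were lower (8.25%). The median difference was 0.00, over a list in which most genes were dim. Of the 34, 13 sat at the lowest intensity on all arrays, including the fertilization genes *spe-9* and *spe-38* and the membrane fusion gene *fer-1*. The summed intensity of the list ran from 5842 to 6369 in DMSO and from 5969 to 7178 in RPW-24.

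The 9 brighter genes of this list had a median difference of -0.10, and 3 of them were above 0. *msd-2* was read at 152, 210 and 136 in DMSO and at 175, 297 and 193 in RPW-24, and *msd-4*, of the same class, at 134, 153 and 124 and at 135, 231 and 188. Both differed by 0.40 (adjusted p = 0.697 and 0.551, limma), with their highest reading on the RPW-24 array of H, and both are _x_at probe sets. *swm-1*, a protease inhibitor that keeps sperm from activating too early, had the largest difference, 0.74 ± 0.18 (adjusted p = 0.149, limma). Its adjusted p was 0.283 with the block, 0.0357 with the intensity minimum and 0.0478 with both (limma).

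*swm-1* was read at 965, 1323 and 1299 in DMSO and at 2000, 2293 and 1670 in RPW-24. Its groups did not overlap, as for 15.3% of all probe sets of that brightness in the higher direction. *fog-1*, an RNA-binding protein that directs germ cells to become sperm, was read at 539, 472 and 510 in DMSO and at 393, 413 and 397 in RPW-24, a difference of -0.34 ± 0.06 (adjusted p = 0.0626, limma). Its adjusted p was 0.239 with the block, 0.0345 with the intensity minimum and 0.0907 with both (limma). *spe-44*, a transcription factor of the sperm program, differed by -0.23 ± 0.06 (adjusted p = 0.153, limma). The differences of *fog-1* and *spe-44* ran in the opposite direction to those of the *msp* genes. With the intensity minimum, 18.9% of the probe sets tested were lower at an unadjusted p under 0.05 (limma).

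The brightest genes of the list were *swm-1* and *cpb-1*, an RNA-binding protein needed in spermatogenesis, which differed by -0.19 ± 0.09. The sperm phosphatase genes *gsp-3* and *gsp-4*, both just under the minimum brightness, differed by -0.08 and 0.27.

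Genes on the receiving side of the major sperm protein signal were described from a list of 19, all of which were measured. With limma 0 were called higher (2.42% of all probe sets) and 1 lower (1.07%), and the median difference was 0.00. At an unadjusted p under 0.05, 1 was higher (6.79%) and 1 lower (8.25%). The gene called lower was *inx-22*, a gap junction protein of oocytes that helps to hold them in arrest until sperm are present. It was read at 2233, 2288 and 2342 in DMSO and at 1811, 1906 and 1923 in RPW-24. The difference was -0.28 ± 0.03 (adjusted p = 0.0237, limma), and the adjusted p was 0.0698 with the block, 0.0188 with the intensity minimum and 0.0497 with both. Its call was lost when any of the arrays DMSO G, DMSO H, DMSO I, RPW-24 H or RPW-24 I was left out.

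*vab-1*, an ephrin receptor that binds major sperm protein, differed by 0.03, and *unc-43*, a calcium-dependent kinase, by 0.45 ± 0.16 (adjusted p = 0.307, limma). The adjusted p of *unc-43* was 0.145 with the block, 0.101 with the intensity minimum and 0.0392 with both (limma). The brightest of the list, *ran-1*, a GTPase of nuclear transport, and *inx-8*, a gap junction protein of the sheath, differed by -0.04 and -0.14.

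Markers of oocytes and the germline had values mostly below 0 and those of muscle and intestine mostly above 0. None of them were called in the main limma fit, which has no block and no intensity minimum. Of 23 oocyte and eggshell genes, 21 were below 0 with a median of -0.13, and of 21 genes of the germline and meiosis all 21 were below 0 with a median of -0.24. All of these genes were among the brighter probe sets, which as a whole also had a median below 0. The oocyte median lay within the quartiles given above for all probe sets of that brightness. The germline median lay just under the lower one. With limma 0 were called in either list (2.42% of all probe sets higher and 1.07% lower). At an unadjusted p under 0.05, 8 oocyte genes and 9 germline genes were lower (8.25%) and 0 higher (6.79%). With the intensity minimum, which all of these genes pass, 9 and 11 were lower at that p (18.9% of the probe sets tested). At an adjusted p under 0.05 that setting called 2 genes of each list lower (6.76%) and 0 higher (9.55%). The summed intensity of the oocyte list ran from 281888 to 286463 in DMSO and from 249570 to 272781 in RPW-24, and that of the germline list from 57375 to 58946 and from 46654 to 53042. Examples are *rme-2*, the yolk receptor of oocytes, at -0.35 ± 0.08 (adjusted p = 0.12, limma), and *pgl-1*, a protein of germ granules, at -0.32 ± 0.05 (adjusted p = 0.0535, limma). With the intensity minimum their adjusted p-values were 0.0318 and 0.0172 (limma).

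The eggshell genes *cpg-2* and *cpg-1*, the brightest of the oocyte list, differed by -0.03 and -0.11, and the germline genes *gld-1* and *glh-1*, an RNA-binding regulator and a helicase of germ granules, by -0.16 and -0.29. All 12 muscle markers were above 0, with a median of 0.33, and 8 of 10 intestine markers were, with a median of 0.35. Again 0 were called (2.42% of all probe sets higher and 1.07% lower), and 7 and 5 were higher at an unadjusted p under 0.05 (6.79%). With the intensity minimum, 2 muscle and 3 intestine markers were called higher (9.55% of the probe sets tested). Summed muscle intensity ran from 61359 to 72407 in DMSO and from 80400 to 88073 in RPW-24, and the intestine sum from 169583 to 192755 and from 185724 to 212504. The muscle genes *mlc-2*, a myosin light chain, and *pat-10*, troponin C, differed by 0.31 and 0.22, and the intestine genes *vit-6*, a yolk protein, and *asp-1*, a protease, by 0.13 and -0.12. The part of these marker differences in the *msp* difference was not tested.

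**Figure D5:**
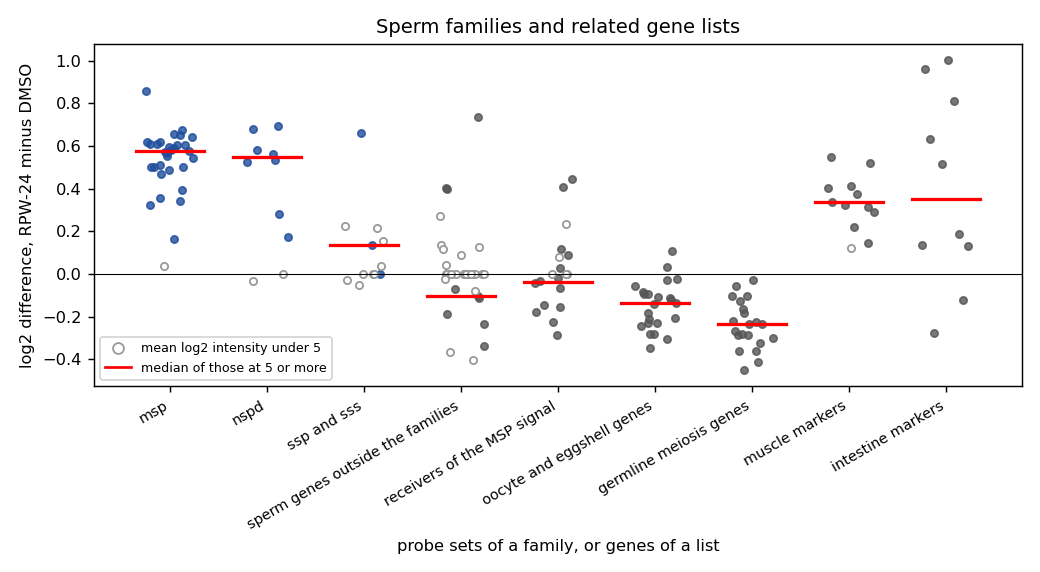
Each point is the log2 difference, RPW-24 minus DMSO, of 1 probe set of a sperm family (blue) or 1 gene of a related list (grey), with open symbols for a mean log2 intensity under 5 and a red line at the median of the rest. The *msp* and *nspd* medians stand at 0.58 and 0.55, the oocyte and germline medians at -0.13 and -0.24, and the muscle and intestine medians at 0.34 and 0.35.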

How the data were processed

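Each of 6 one-colour Affymetrix arrays has a column of linear intensity, deposited by the authors after GC-RMA background correction and quantile normalization (GenePattern 2.0), with no pooling. The GC-RMA version and the annotation's genome build are not given in the sources used here. With arrays there is no read depth, and 3 per group limit the precision.

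After 77 of 22625 probe sets were removed as controls, log2 was taken of the rest. Gene names came from the platform annotation, and where related lists needed 1 value per gene, the brightest probe set naming that gene alone was used. RPW-24 and DMSO were tested with limma 3.58.1 (R 4.3.3, lmFit and eBayes with trend), with Benjamini-Hochberg adjustment over 22548 probe sets, no filter and no block, since the methods name a modified t-test and no pairing or filter. Alternatives were the replicate letter as a block, a minimum mean log2 intensity of 5, further quantile normalization and centring each array on its median. Others were no variance trend, a plain t-test on linear intensity, other choices of probe sets, and leaving out each array.

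The series' design states that both treatments of a letter were run in parallel, so letters pair the arrays. Deviations from the group means, taken over 13946 probe sets that stayed clear of the lowest value, correlated at 0.088, 0.14 and 0.14 within letters G, H and I, and from -0.094 to -0.032 between letters.

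Genes named individually are members called with or without the block, the 3 brightest of each family, its 2 largest and 2 smallest differences among brighter members, and in each list the called genes and the 2 brightest. Further genes named in the text were chosen after their values were seen. Members and lists were chosen with earlier results of these data known. Fits were tested on simulated data. Sequences are not shown.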

Additional observations from a re-analysis of the deposited data

How the results depend on the processing

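The median difference of the members was above 0 under every alternative that gives one. It was 0.37 with arrays centred on their medians, with or without the replicate block, a scaling that moves the median of all probe sets by -0.14, and in effect 0 (2.1e-05) over the 8 members left without _s_at and _x_at probe sets, none of them bright. Leaving out 1 array gave 0.33 (without the RPW-24 array of H) to 0.72 (without the DMSO array of H), and 0.53 without either array of H. Members called numbered 0 without any 1 array, where 1.22% to 1.73% of all probe sets were called higher and 0.319% to 0.692% lower. With both H arrays left out they also numbered 0, where 0.231% of all probe sets were called higher and 0.0621% lower. The count was 1, lower, after further quantile normalization (3.61% of all probe sets were called lower and 2.63% higher), and 7, all lower, with centring (64.2% lower, 4.93% higher). Centring moved the constant *ssp-10* and *sss-2* to -0.14 by its shift alone. The smallest differences of the brighter *msp* and *nspd* probe sets, *msp-32* and *nspd-7*, were 0.03 and 0.04 there. None of the 7 is thus a brighter *msp* or *nspd* probe set. The count was 2, both higher, with the replicate block, and 29, all higher, with the block and the minimum intensity (0 to 1 when a letter was also left out). The block with quantile normalization called 1, higher (0.945% of all probe sets), the block with centring 35, of which 28 higher (4.95%) and 7 lower (59.9%), and the block with no variance trend 0 (0.222% higher, 0.0577% lower). The settings that join the block with another scaling, with no variance trend or with a left-out letter, and the one without both H arrays, were chosen after seeing the data.

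In the related lists, calls also moved with the setting. Quantile normalization called 1 sperm gene, 2 receivers, 1 oocyte gene and 1 germline gene lower and 2 intestine markers higher. Centring called 20 sperm genes, 4 receivers, 16 oocyte genes, 18 germline genes and 1 intestine marker lower, and 1 sperm gene and 4 intestine markers higher; genes that sit at the lowest intensity on all arrays are moved by that shift alone. The minimum intensity called 1 sperm gene higher and 1 lower, 2 oocyte and 2 germline genes lower, and 2 muscle and 3 intestine markers higher. Of all probe sets tested in that setting, 9.55% were called higher and 6.76% lower. The block called 0 receivers lower. The block with the minimum called 1 sperm gene, 1 receiver, 5 muscle and 3 intestine markers higher, and 1 receiver, 1 oocyte and 1 germline gene lower. There, 9.42% of all probe sets tested were called higher and 4.29% lower. Leaving out 1 array gave 0 to 1 receiver, oocyte or germline gene lower and 0 to 1 intestine marker higher. In those settings 1.22% to 1.73% of all probe sets were called higher and 0.319% to 0.692% lower. Except where a sentence here gives one, the cause was not tested.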
